A study of Brassica rapa subsp. chinensis with 2 samples.

Results

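Glucosinolate synthesis genes were followed in stem RNA of the wax-less line ‘CX001’ and the waxy line ‘FT’ of *Brassica rapa*. The members are the rows of the deposited gene table whose best Swiss-Prot protein match carries the symbol of an enzyme of side-chain elongation (*MAM1*, *MAM3*, *BCAT4*), of the core structure (*CYP79B2*, *CYP79B3*, *CYP79F1*, *CYP79F2*, *CYP83A1*, *CYP83B1*, *SUR1*, *UGT74B1*, *UGT74C1*, *SOT16*, *SOT17*, *SOT18*), of later modification (*AOP1* to *AOP3*, *CYP81F1* to *CYP81F4*, any *FMOGS-OX*) or of a MYB regulator (*MYB28*, *MYB29*, *MYB34*, *MYB51*, *MYB122*). In this way 54 of 33087 genes were found, all matched to an Arabidopsis protein. They carry 25 of these symbols, while *MAM3*, *CYP79B2*, *CYP79F2* and *AOP3* named no row used here. A shared symbol means a shared best match, so copies with 1 symbol need not be equal in function.

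Microspore culture gave both doubled-haploid lines. The flowering Chinese cabbage ‘CX001’ goes back to ‘Super Grade 50 Sweet Flowering Chinese Cabbage’ and carries the recessive wax-less locus *wlm1*, and the control ‘FT’, a Chinese cabbage, goes back to ‘FT50’. By the methods, the study's plants were vernalized in the cold as germinated seeds, and the labels name no other treatment. Stems were taken at bolting, and 3 libraries per line were sequenced as paired ends on an Illumina Hiseq4000. Each line is a single genotype and the lines are different crop types, so effects of *wlm1* and of any other difference between the genomes cannot be told apart. No source says whether the libraries came from separate plants, so p-values measure only the spread between these libraries. In bulk stems, fewer cells of a type and less RNA per cell cannot be told apart either.

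Glucosinolates are the sulphur-rich defence compounds of the cabbage family, which myrosinases break down when tissue is wounded. In Arabidopsis the aliphatic kind is built from methionine whose side chain is first elongated, and the indole kind from tryptophan. Both pass through an aldoxime made by a CYP79 enzyme, its oxidation by a CYP83 enzyme, cleavage by the C-S lyase SUR1, glucosylation by UGT74 enzymes and sulphation by SOT enzymes. MYB28 and MYB29 switch on the aliphatic branch, and MYB34, MYB51 and MYB122 the indole branch.

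The deposited table gives 1 mean per line, but at a precision that allowed the whole count of each library to be worked out. Values below are these counts divided by the authors' size factors, called normalized counts. Libraries are numbered within a line by the size of 1 normalized count, which is only a name. The total recovered count was 14816004 to 16617611 in the ‘CX001’ libraries and 14813776 to 15447722 in the ‘FT’ libraries. Libraries of ‘CX001’ correlated with each other at Pearson's r of 0.95 to 0.966 across tested genes, those of ‘FT’ at 0.972 to 0.977, and libraries of different lines at 0.756 to 0.792. These are correlations across genes, which are not independent replicates. Of 15 tested xylem markers, 8 were called higher in ‘CX001’ stems and none lower, against 14.2% and 15.8% of all tested genes. The 17 xylem genes summed to 10352 to 31996 normalized counts in ‘CX001’ and 6048 to 8093 in ‘FT’, with 1 gene at 0 throughout ‘CX001’. Green-tissue, phloem and epidermal markers were present in every library. Against the same shares, 4 of 16 tested green-tissue genes were called higher and 3 lower. Among both the 6 phloem and the 9 epidermal genes, none was called higher and 2 lower. These sums were 95467 to 151265 (green tissue), 2190 to 2473 (phloem) and 4534 to 5483 (epidermis) in ‘CX001’, against 97349 to 130465, 1922 to 2642 and 5995 to 9870 in ‘FT’. The green-tissue sums leave out 9 of the 26 listed genes. Their counts could not be worked out in at least 1 line, where the mean was at least 1.81e+04 normalized counts. The 10 floral-part genes summed to 122 to 376 in ‘CX001’ and 274 to 468 in ‘FT’. Of 5 tested floral genes, 0 were called higher and 1 lower, against 14.2% and 15.8% of all tested genes. The lower one, *AGL9* BraA07g012310.3C, had 0 in every ‘CX001’ library, against 106, 63.6 and 118 in ‘FT’. The 1 root gene was under the filter of the comparison below. The part of tissue makeup in any difference between the lines was not tested.

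Lines were compared with limma on log2(normalized count + 1), with p-values adjusted by the Benjamini-Hochberg method over all 26549 genes with a mean of at least 5 over the 6 libraries. A call needed an adjusted p below 0.05 together with a log2 fold change (‘CX001’ over ‘FT’) beyond 1 in either direction. Of the 54 genes, 35 passed the filter, and no library exceeded 21.4 normalized counts in the other 19. In ‘CX001’ stems 6 genes were called higher, against a background of 14.2% of all tested genes, and 7 were called lower, against a background of 15.8%. Called in either direction were 13 of 35 (37.1%), near the 30.0% of all tested genes, so the number of calls does not set these genes apart. By branch, with no test of the difference between branches, the counts were these. Of 23 tested aliphatic genes 1 was called higher and 5 lower, of 8 tested indole genes 4 higher and 1 lower, and of 4 genes used by both branches (*SUR1*, *UGT74B1*) 1 higher and 1 lower. The libraries of the lines did not overlap in 13 of the 35 genes, against 58.3% of all tested genes.

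**Figure D1:**
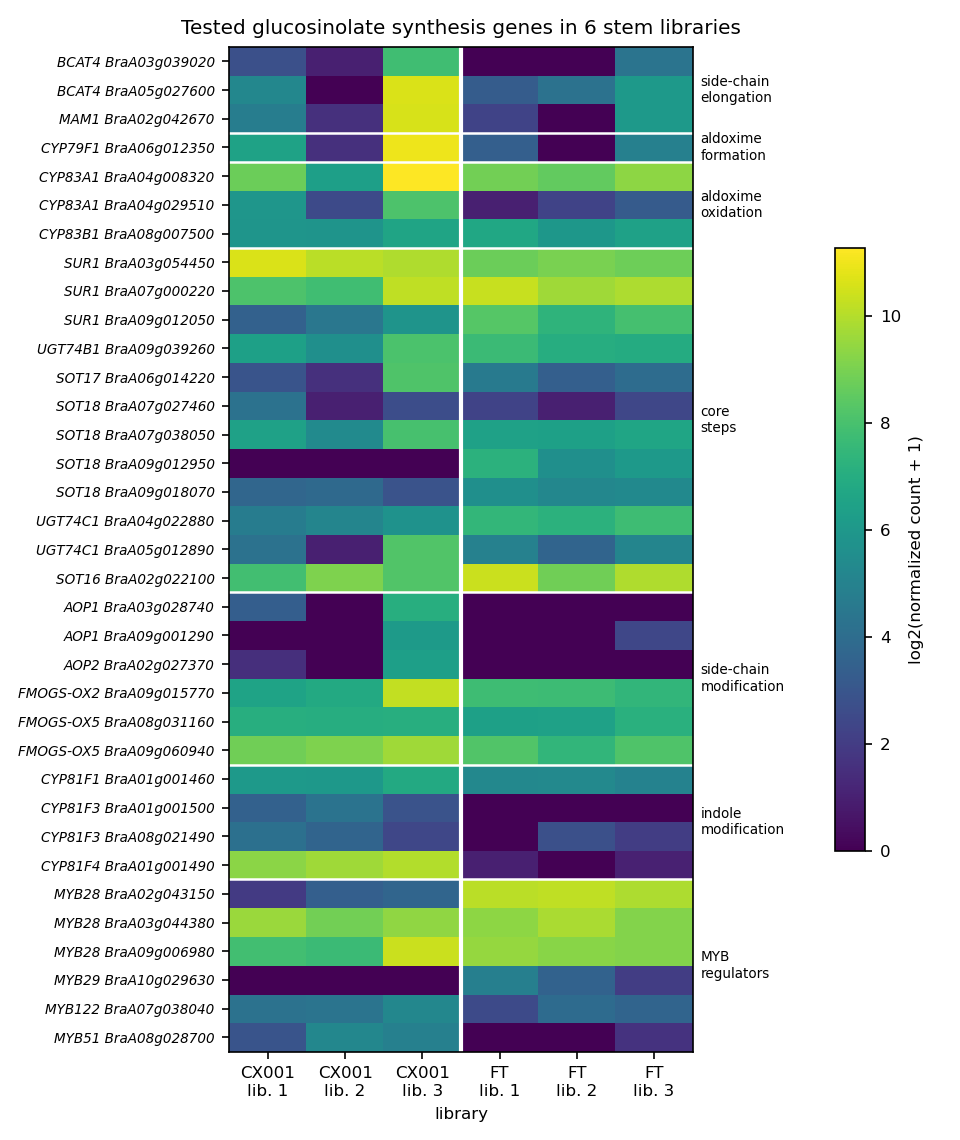
Heat map of log2(normalized count + 1) for the 35 tested genes (rows, grouped by role) in the 6 stem libraries (columns, ‘CX001’ left of ‘FT’). The column of ‘CX001’ library 3 is brighter than its neighbours through side-chain elongation and aldoxime formation, while *CYP81F4* and the *MYB28* copy BraA02g043150 differ between the lines in every library.

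The aliphatic branch was dominated by a single library. ‘CX001’ library 3 was at least 4-fold above both other ‘CX001’ libraries (on value + 1) in 14 of the 35 tested genes, against a background of 1.05% of all tested genes. Of these 14, 13 were aliphatic genes (of 23), 1 served both branches (of 4) and 0 were indole genes (of 8). Among the 13, 3 *AOP* copies passed the filter only through this library, so their place in these counts was fixed by the filter. ‘CX001’ library 2 was at least 4-fold below both others in 7 genes, all aliphatic, against 0.309% of all tested genes. In ‘FT’ the highest count of genes so far above both other libraries was 3 of 35, in library 3, all aliphatic, against 0.128% of all tested genes. The median ratio of the highest to the lowest library was 12.9 for aliphatic genes in ‘CX001’ and 1.77 in ‘FT’, against 1.42 and 1.36 for all tested genes. The aliphatic medians include those 3 *AOP* copies. For the 8 tested indole genes it was 2.15 in ‘CX001’ and 2.34 in ‘FT’. The genes of a pathway move together, so these counts describe 1 library and are not independent events. Summed over the 30 aliphatic genes, the level was 2532, 1667 and 13508 normalized counts in ‘CX001’, against 4112, 3954 and 4090 in ‘FT’. Library 3 thus lay above, and libraries 1 and 2 below, every ‘FT’ library in a sum that includes the MYB regulators. The 10 genes of side-chain elongation, *CYP79F1*, *CYP83A1* and *SOT17* alone summed to 655, 96.5 and 8423 in ‘CX001’, against 508, 408 and 876 in ‘FT’. There library 1 lay within the range of ‘FT’ and only library 2 below it.

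Some markers of other tissues were also highest in library 3. The summed level of *CESA4*, *CESA7* and *CESA8*, the cellulose synthases of secondary walls, was 2346, 7222 and 19740 normalized counts in ‘CX001’ libraries 1 to 3, against 2541, 1635 and 2271 in ‘FT’. This group was picked from the xylem list after its values were seen. Both *IRX12* copies of that list shared the order, while its *XCP1*, *XCP2* and *LAC17* genes did not. *IRX12* BraA04g027000.3C had 302, 654 and 1378 in ‘CX001’, against 149, 130 and 176 in ‘FT’. *IRX12* BraA05g007550.3C had 1264, 2634 and 3117, against 879, 695 and 894. *XCP1* BraA01g003050.3C, a xylem protease, had 2151, 3199 and 2747 in ‘CX001’, against 1007, 860 and 1242 in ‘FT’. The green-tissue markers with worked-out counts summed to 95467, 96299 and 151265 in ‘CX001’ and 107733, 97349 and 130465 in ‘FT’. That sum leaves out 9 of the 26 listed genes, so it does not describe the whole list. Library 3 was highest of the ‘CX001’ libraries in both sums. The part of these tissues in the result was not tested. Every comparison below was therefore also made without ‘CX001’ library 3, a choice that follows from its values.

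Without that library, 5 of the 32 members still tested were called higher and 10 lower, against 13.5% and 16.7% of all tested genes (30.2% in either direction). The median log2 fold change of the aliphatic genes was 0.24 with all libraries (23 genes) and -1.16 without ‘CX001’ library 3 (20 genes), against 0.00069 and -0.0012 over all tested genes. For the indole genes it was 1.51 and 1.61 (8 genes). Of the 20 aliphatic genes still tested 1 was then called higher and 7 lower, and of 8 indole genes 3 higher and 0 lower. The 3 genes lost were *AOP* copies, which then fell under the filter. *MYB29* BraA03g003120.3C passed the filter only without that library, is not in these counts and was not called (limma adjusted p = 0.92).

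**Figure D2:**
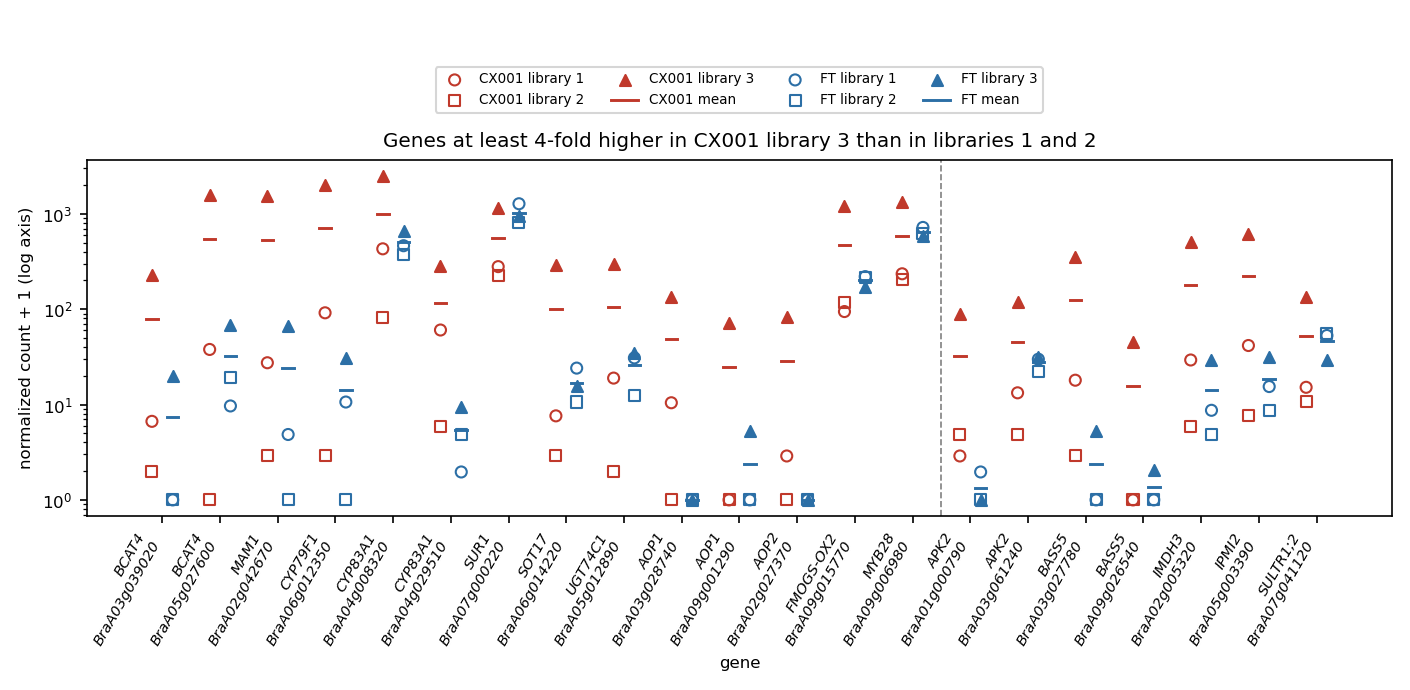
Normalized count + 1 (log axis) in each library for every tested gene at least 4-fold higher in ‘CX001’ library 3 (filled red triangles) than in both other ‘CX001’ libraries, with ‘CX001’ left of ‘FT’ and short lines at the line means. The 14 synthesis genes stand left of the dashed line and 7 of 69 other pathway genes right of it; in *BCAT4*, *MAM1* and *CYP79F1* the triangles lie at 1551 to 2014, against at most 67.5 in ‘FT’ (genes BraA05g027600, BraA02g042670 and BraA06g012350).

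Side-chain elongation showed the largest contrast within ‘CX001’. *BCAT4* BraA05g027600.3C, which starts elongation by deaminating methionine, had 36.8, 0 and 1578 normalized counts in ‘CX001’, against 8.66, 18.3 and 67.5 in ‘FT’. *MAM1* BraA02g042670.3C, a methylthioalkylmalate synthase that adds the extra carbon, had 26.4, 1.93 and 1551 in ‘CX001’, against 3.85, 0 and 65.4 in ‘FT’. In both genes library 3 was the highest library of either line and the remaining libraries overlapped. Neither was called, at log2 fold changes of 0.74 ± 2.25 (SE) and 2.87 ± 2.25 (limma adjusted p = 0.81 and 0.32). Without ‘CX001’ library 3 the value of *BCAT4* turned to -1.93 (adjusted p = 0.33). The second *BCAT4* copy, BraA03g039020.3C, held 12.5% of the per-length level of both copies in ‘CX001’ library 3, and its own values were 5.66, 0.965 and 225 in ‘CX001’ and 0, 0 and 19.0 in ‘FT’. The other 2 *MAM1* copies had at most 1.07 normalized counts in any library.

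Aldoxime formation and oxidation followed the same order of libraries. *CYP79F1* BraA06g012350.3C, which turns elongated methionine into an aldoxime, had 90.6, 1.93 and 2014 normalized counts in ‘CX001’, against 9.62, 0 and 29.5 in ‘FT’. Its log2 fold change of 3.57 ± 2.19 was not called (adjusted p = 0.21), and library 3 was 43.5-fold above the mean of the other ‘CX001’ libraries. *CYP83A1* BraA04g008320.3C, the oxidase of aliphatic aldoximes, had 429, 81.1 and 2481 in ‘CX001’, against 462, 377 and 666 in ‘FT’. The lines overlapped, at a log2 fold change of -0.14 ± 1.02 (adjusted p = 0.92). The *CYP83A1* copy BraA04g029510.3C had 59.5, 4.83 and 281 in ‘CX001’, against 0.962, 3.85 and 8.43 in ‘FT’. It was near the threshold, at 3.37 ± 1.27 (adjusted p = 0.058). That copy lies next to the little-read *CYP79F1* copy BraA04g029520.3C in the table, on chromosome A04 from 20424377 to 20441502 (*B. rapa* genome V3.0, as all positions here).

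The contrast between libraries was small in the only indole counterpart that passed the filter. *CYP83B1* BraA08g007500.3C, which oxidizes the indole aldoxime, had 57.6, 56.9 and 95.3 normalized counts in ‘CX001’, against 104, 61.6 and 85.4 in ‘FT’ (log2 fold change -0.27 ± 0.31, adjusted p = 0.50). *CYP79B3* BraA04g016310.3C, which makes that aldoxime from tryptophan, had 0 in every ‘CX001’ library, against 0.962, 0.963 and 1.05 in ‘FT’, a single count per library. The entry step of the indole branch was thus barely detected in either line under this symbol.

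Copies of *SUR1*, the C-S lyase of both branches, were called in opposite directions. The A03 copy BraA03g054450.3C (28264479 to 28267892) had 1612, 1092 and 984 normalized counts in ‘CX001’, against 423, 515 and 445 in ‘FT’, without overlap. It rose by 1.39 ± 0.19 on the log2 scale (adjusted p = 0.00071). The A09 copy BraA09g012050.3C (7084512 to 7087417) had 10.4, 21.2 and 55.7 in ‘CX001’, against 313, 160 and 247 in ‘FT’, again without overlap. Its log2 fold change was -3.26 ± 0.55 (adjusted p = 0.0018). The A07 copy BraA07g000220.3C had 278, 222 and 1163 in ‘CX001’, against 1274, 805 and 946 in ‘FT’. It was not called with all libraries (-1.25 ± 0.55, adjusted p = 0.094) and was called lower without ‘CX001’ library 3 (-1.99, adjusted p = 0.00063). Per kb of coding length, the 3 copies together gave 1409, 990 and 1627 normalized counts in ‘CX001’, against 1483, 1093 and 1208 in ‘FT’, so the sums overlapped although the copies did not share a direction. How reads shared by similar copies were counted is not given in the sources used here, so the split between copies is uncertain.

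**Figure D3:**
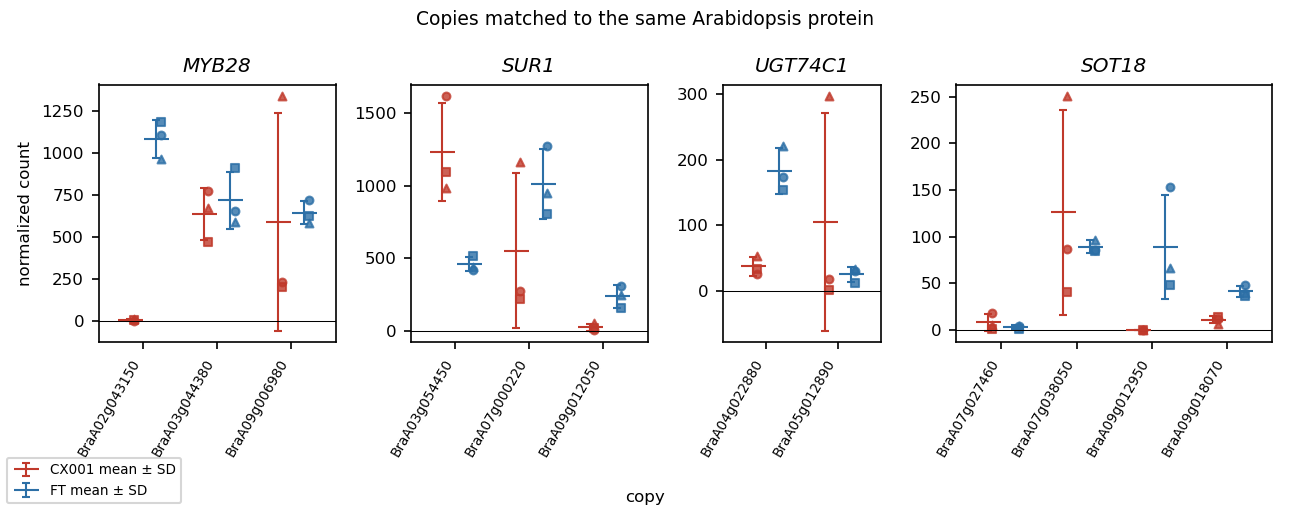
Normalized counts of tested copies with the same protein match, with ‘CX001’ (red) left of ‘FT’ (blue); circles, squares and triangles are libraries 1, 2 and 3, bars the mean ± SD (n = 3). *MYB28* BraA02g043150 and *SOT18* BraA09g012950 are near or at 0 in ‘CX001’, and 1 copy of *SUR1* lies above and another below ‘FT’.

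Glucosyltransferases gave 1 clear fall. *UGT74C1* BraA04g022880.3C (A04, 16881920 to 16884091), an aliphatic-branch glucosyltransferase in Arabidopsis, had 25.5, 33.8 and 53.6 normalized counts in ‘CX001’, against 174, 153 and 221 in ‘FT’. The log2 fold change was -2.30 ± 0.31 (adjusted p = 0.00060), and every ‘CX001’ library lay below every ‘FT’ library. Its other copy, BraA05g012890.3C, had 17.9, 0.965 and 297 in ‘CX001’, against 29.8, 11.6 and 33.7 in ‘FT’, and was not called. *UGT74B1* BraA09g039260.3C, which serves both branches, had 84.9, 48.3 and 274 in ‘CX001’, against 206, 131 and 122 in ‘FT’. It was not called (-0.51 ± 0.56, adjusted p = 0.48), but was called lower without ‘CX001’ library 3 (-1.20, adjusted p = 0.028).

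Sulphotransferases finish the core structure. Of the tested copies (1 of *SOT16*, 1 of *SOT17* and 4 of *SOT18*), 3 were called, all lower, against 15.8% of all tested genes called lower. The other tested copies had log2 fold changes of 0.11 to 0.75 and were not called. *SOT18* BraA09g012950.3C (A09, 7629614 to 7630672) had 0 in all ‘CX001’ libraries, against 153, 48.1 and 66.4 normalized counts in ‘FT’ (adjusted p = 4.1e-05). Against the 3 counts over a line that a count of 0 allows, this is at least 83.3-fold lower. *SOT18* BraA09g018070.3C had 12.3, 13.5 and 6.43 in ‘CX001’, against 48.1, 36.6 and 40.1 in ‘FT’ (-1.91 ± 0.38, adjusted p = 0.0038). *SOT16* BraA02g022100.3C, whose Arabidopsis counterpart prefers indole substrates, had 233, 547 and 300 in ‘CX001’, against 1318, 457 and 979 in ‘FT’. Its call (-1.31 ± 0.42, adjusted p = 0.033) was weak: 1 ‘CX001’ library lay above 1 ‘FT’ library, and leaving out ‘CX001’ library 1 or 3, or ‘FT’ library 1 or 3, ended it (adjusted p 0.087 to 0.12).

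Other sulphotransferase copies were uneven. *SOT17* BraA06g014220.3C had 6.61, 1.93 and 287 normalized counts in ‘CX001’, against 23.1, 9.63 and 14.8 in ‘FT’. It was not called with all libraries (0.22 ± 1.47) and was called lower without ‘CX001’ library 3 (-1.75, adjusted p = 0.047). *SOT18* BraA07g038050.3C, the copy with the highest mean, had 86.8, 40.5 and 251 in ‘CX001’, against 85.7, 84.7 and 97.0 in ‘FT’, with overlap and no call. Under the filter, *SOT18* BraA09g018130.3C had 6.61, 1.93 and 8.57 in ‘CX001’ and 0 in every ‘FT’ library, while *SOT16* BraA07g038080.3C had 0 in every ‘CX001’ library and 5.77, 0 and 9.49 in ‘FT’. Counts were made on 1 reference genome, so a gene without RNA and a gene copy that is missing or too different to be matched cannot be told apart in a line at 0.

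Side-chain modification of aliphatic glucosinolates included 1 rise. *FMOGS-OX5* BraA09g060940.3C (A09, 42603626 to 42605458), a flavin monooxygenase that oxidizes the side-chain sulphur, had 449, 548 and 807 normalized counts in ‘CX001’, against 295, 172 and 291 in ‘FT’. The lines did not overlap and the log2 fold change was 1.25 ± 0.27 (adjusted p = 0.0065). *FMOGS-OX2* BraA09g015770.3C, of the same activity, had 93.4, 116 and 1214 in ‘CX001’, against 218, 213 and 172 in ‘FT’. Libraries 1 and 2 lay below and library 3 above every ‘FT’ library, and the gene was not called (0.24 ± 0.84, adjusted p = 0.83).

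The *AOP* genes encode oxygenases, of which AOP2 forms alkenyl side chains. *AOP1* BraA03g028740.3C had 9.44, 0 and 134 normalized counts in ‘CX001’ and 0 in every ‘FT’ library. *AOP2* BraA02g027370.3C had 1.89, 0 and 81.4 in ‘CX001’, also with 0 in every ‘FT’ library. Both rested almost entirely on ‘CX001’ library 3, and neither was called (adjusted p = 0.087 and 0.16). Without ‘CX001’ library 2, the low one, *AOP1* (adjusted p = 0.0078), *AOP2* (0.049), *CYP79F1* (0.031) and *CYP83A1* BraA04g029510.3C (0.0054) passed, so these calls turn on which library is kept.

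Indole modification held the largest rise of the 35 tested genes. *CYP81F* enzymes hydroxylate the indole ring before it is methylated. On chromosome A01, 4 of them stand in a row from 730999 to 753641, in the order *CYP81F1*, *CYP81F1*, *CYP81F4* and *CYP81F3*, next to each other in the table. *CYP81F4* BraA01g001490.3C (744013 to 745766) had 637, 819 and 1006 normalized counts in ‘CX001’, against 0.962, 0 and 1.05 in ‘FT’ (log2 fold change 8.99 ± 0.38, adjusted p = 2.9e-06). This rests on 2463 counts in ‘CX001’ and 2 in ‘FT’, a ratio of 1221 with a 95% interval of 340 to 10164 that covers counting error only.

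Both of its tested neighbours on A01 were also called higher with all libraries. *CYP81F3* BraA01g001500.3C had 10.4, 18.3 and 6.43 normalized counts in ‘CX001’ and 0 in every ‘FT’ library, at least 11.1-fold higher (adjusted p = 0.00090). *CYP81F1* BraA01g001460.3C had 66.1, 62.7 and 114 in ‘CX001’, against 37.5, 38.5 and 30.6 in ‘FT’. It was called higher (1.12 ± 0.31, adjusted p = 0.018), but not without ‘CX001’ library 3, where its log2 fold change was 0.85, nor without ‘FT’ library 3 (adjusted p = 0.057). The *CYP81F1* copy BraA01g001470.3C was under the filter, with 3.78, 0 and 21.4 in ‘CX001’ and 0, 0 and 3.16 in ‘FT’. A second pair, *CYP81F3* and *CYP81F4*, lies on A08. There *CYP81F3* BraA08g021490.3C had 17.0, 11.6 and 4.28 in ‘CX001’, against 0, 5.78 and 3.16 in ‘FT’ (adjusted p = 0.095), and *CYP81F4* BraA08g021500.3C had at most 0.963 in any library. *CYP81F2* BraA02g012430.3C had at most 3.21.

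The MYB regulators gave the largest fall with a measurable level in both lines. *MYB28* BraA02g043150.3C (A02, 29897300 to 29899176) had 2.83, 9.65 and 11.8 normalized counts in ‘CX001’, against 1105, 1183 and 961 in ‘FT’. The log2 fold change was -7.07 ± 0.43 (adjusted p = 1.2e-05), and -7.40 without ‘CX001’ library 3. The A03 copy BraA03g044380.3C had 771, 471 and 673 in ‘CX001’, against 657, 911 and 587 in ‘FT’, overlapping and not called (-0.17 ± 0.23, adjusted p = 0.55). The A09 copy BraA09g006980.3C had 234, 203 and 1336 in ‘CX001’, against 719, 627 and 585 in ‘FT’. It was not called with all libraries (-0.68 ± 0.62) and was called lower without ‘CX001’ library 3 (-1.55, adjusted p = 0.00044).

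The share of the copies shows this most plainly. Per kb of coding length, the A02 copy made up 0.283% to 1.42% of the *MYB28* level in ‘CX001’ and 43.7% to 45.3% in ‘FT’. In ‘CX001’ library 3 the A09 copy held 65.9%, against 23.1% and 29.5% in libraries 1 and 2. The summed level was 945, 640 and 1887 normalized counts per kb in ‘CX001’, against 2330, 2557 and 2004 in ‘FT’, lower in every ‘CX001’ library. ‘CX001’ library 3 thus had the highest aliphatic sum of all 6 libraries with a *MYB28* sum under that of every ‘FT’ library. Within ‘CX001’, library 3 was highest and library 2 lowest in both sums. A link between the sums was not tested.

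*MYB29* BraA10g029630.3C, the other aliphatic regulator, had 0 in every ‘CX001’ library, against 27.9, 10.6 and 3.16 normalized counts in ‘FT’, at least 13-fold lower (adjusted p = 0.0048). With all libraries its copy BraA03g003120.3C was under the filter, at 14.2, 0 and 4.28 in ‘CX001’ and 2.89, 1.93 and 6.32 in ‘FT’. Of the indole regulators, *MYB51* BraA08g028700.3C had 6.61, 36.7 and 28.9 in ‘CX001’, against 0, 0 and 2.1 in ‘FT’. It was called higher (3.81 ± 0.75, adjusted p = 0.0039), on 72 counts in ‘CX001’ and 2 in ‘FT’, a ratio of 34.2 with a 95% counting interval of 9.60 to 303. *MYB122* BraA07g038040.3C had 17.9, 19.3 and 36.4 in ‘CX001’, against 4.81, 14.4 and 11.6 in ‘FT’, without overlap but not called (adjusted p = 0.072). The 4 *MYB34* copies stayed at or under 6.43 in every library, the highest being BraA03g043830.3C with 5.66, 2.9 and 6.43 in ‘CX001’ and 2.89, 0 and 2.1 in ‘FT’.

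**Figure D4:**
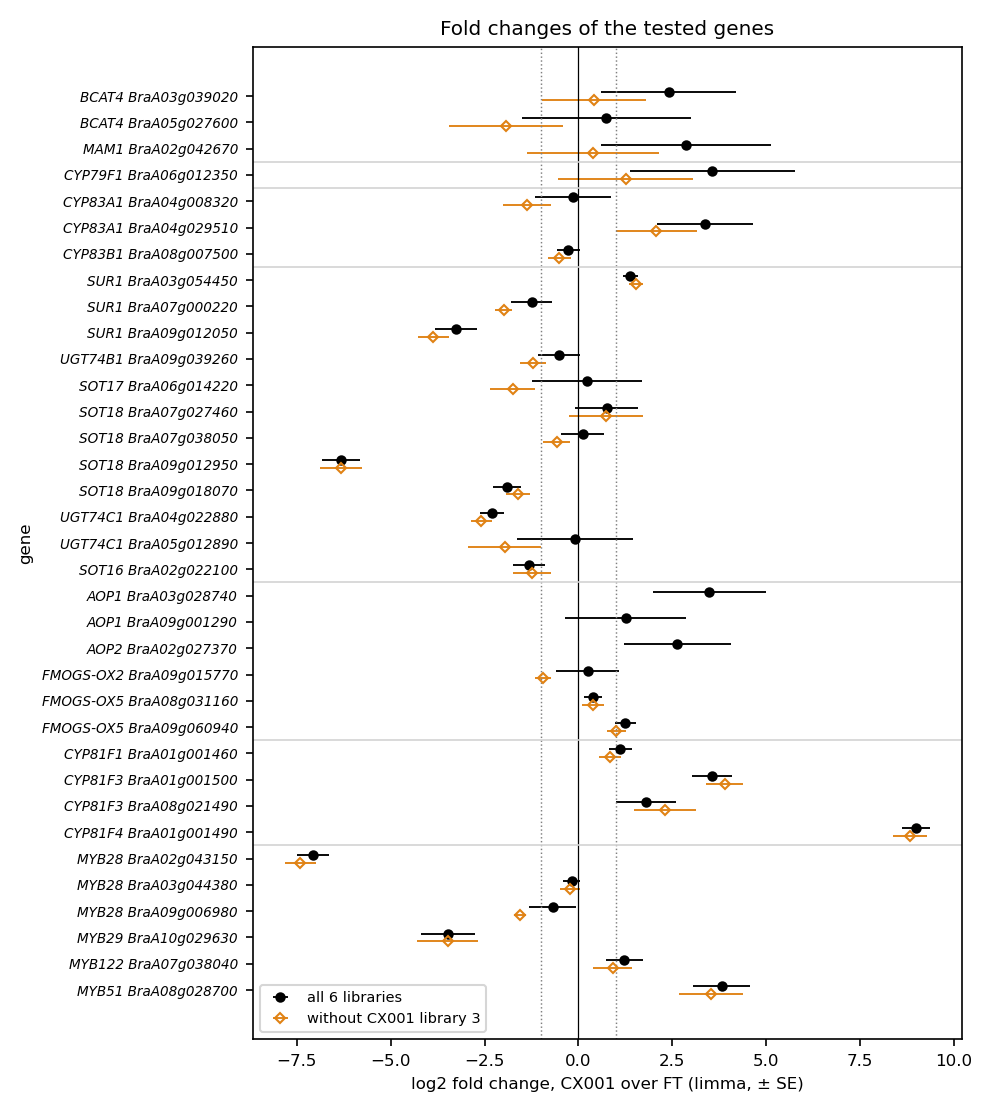
Log2 fold change (‘CX001’ over ‘FT’, limma) ± SE of the 35 tested genes with all 6 libraries (black) and without ‘CX001’ library 3 (orange; absent for 3 *AOP* copies under the filter then). Dotted lines mark the fold minimum of 1; genes of side-chain elongation have SEs of 1.80 to 2.25 with all libraries, while *CYP81F4* and *MYB28* BraA02g043150 stay far from 0 in both fits.

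Further genes of the pathway, named by a separate list of precursor supply, sulphur assimilation, glutathione transfer, methylation, transport and MYC factors, numbered 84, of which 69 were tested. Of these, 9 were called higher and 11 lower, against the same 14.2% and 15.8% of all tested genes. Without ‘CX001’ library 3, 6 of the 65 still tested were called higher and 15 lower, against 13.5% and 16.7%. The 6 with the smallest adjusted p held 4 methyltransferases that act after the CYP81F step. *IGMT4* BraA02g024180.3C had 0 in every ‘CX001’ library, against 166, 123 and 134 normalized counts in ‘FT’ (adjusted p = 5.7e-06). *IGMT5* BraA07g027260.3C also had 0 in ‘CX001’, against 77.0, 31.8 and 66.4 in ‘FT’ (adjusted p = 4.3e-05). *IGMT4* BraA07g026980.3C had 2.83, 1.93 and 7.50 in ‘CX001’, against 78.9, 92.4 and 106 in ‘FT’ (adjusted p = 0.00015). *IGMT1* BraA02g024140.3C went the other way, with 85.9, 61.8 and 66.4 in ‘CX001’, against 2.89, 3.85 and 3.16 in ‘FT’ (adjusted p = 5.0e-05). They lie on A02 and A07, and how reads shared by similar genes were divided is not given in the sources used here.

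The other 2 were both lower. *GSTU13* BraA07g013480.3C, a glutathione transferase linked to indole glucosinolates, had 17.0, 16.4 and 9.64 normalized counts in ‘CX001’, against 264, 147 and 161 in ‘FT’ (adjusted p = 9.3e-05). *SDI1* BraA06g035270.3C, a repressor of glucosinolate synthesis induced by sulphur shortage, had 52.9, 30.9 and 48.2 in ‘CX001’, against 678, 467 and 291 in ‘FT’ (adjusted p = 0.00013). Both genes lay below ‘FT’ in every ‘CX001’ library.

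The library contrast of the aliphatic branch also reached genes of this list. *BASS5* BraA03g027780.3C, the plastid importer of the keto acid that is elongated, had 17.0, 1.93 and 352 normalized counts in ‘CX001’, against 0, 0 and 4.22 in ‘FT’. *IPMI2* BraA05g003390.3C, a subunit of the isomerase of the elongation cycle, had 40.6, 6.76 and 615 in ‘CX001’, against 14.4, 7.70 and 30.6 in ‘FT’. *IMDH3* BraA02g005320.3C, the dehydrogenase of that cycle, had 28.3, 4.83 and 507 in ‘CX001’, against 7.70, 3.85 and 28.5 in ‘FT’. In all, ‘CX001’ library 3 was at least 4-fold above both other ‘CX001’ libraries in 7 of the 69 genes (10.1%). The share over all tested genes was 1.05%. The 7 also include a second *BASS5* copy, 2 *APK2* copies and *SULTR1;2*, and none of the 7 was called with all libraries. Both *BASS5* copies and *APK2* BraA01g000790.3C passed the filter only through that library, so their place in this count was fixed by the filter. Without that library, *APK2* BraA03g061240.3C (-1.78, adjusted p = 0.029) and *SULTR1;2* BraA07g041120.3C (-1.80, adjusted p = 0.013) were called lower.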

How the data were processed

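Stem RNA of ‘CX001’ and ‘FT’ was sequenced with 3 libraries per line. By the methods, the authors aligned reads with HISAT2 and used DESeq2 for the comparison. TopHat2 also appears in the submitters' processing notes, and the methods name StringTie for expression levels as FPKM, which were not used here. Which tool made the counts behind the comparison is not given in the sources used here. The deposited signal values are the authors' mean per line of counts divided by size factors. The authors' own fold changes, p-values, adjusted p-values and direction labels were not used.

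Each mean, printed to 15 significant digits, is a sum of whole counts times 3 steps. Solving for whole counts gave 1 solution for 33049 (‘CX001’) and 33048 (‘FT’) of 33087 genes, to a relative tolerance of 1e-14. The 51 genes with more than 1 solution in a line were left out. None was a member, but 9 of the green-tissue markers were among them. Because the deposited values are means, limma 3.58.1 with a mean-variance trend (R 4.3.3) took the place of the count model of the methods, on log2(normalized count + 1). Fold changes on this scale understate changes of low genes. Means are ± SD. Folds against a line at 0 use a floor of 3 counts over the line (a mean of 1.07 in ‘CX001’ and 1.05 in ‘FT’), and low-count ratios have exact 95% intervals. Both cover counting error only. Solving and fitting were tested on simulated data. Lengths are coding lengths.

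Members and lists were chosen with earlier results of these data known. Named with values were called members, members at 0 in 1 line whose mean in the other reached 5, the highest copy of each symbol and all copies of a symbol called in both directions, and up to 6 other pathway genes. Other copies given with values, and the genes high in ‘CX001’ library 3, were chosen after values were seen. Alternatives changed the scaling, pseudocount, filter, fold minimum, test (limma-voom) and libraries. Computing used Python 3.11.15, numpy 2.4.6, pandas 2.3.3, scipy 1.17.1 and matplotlib 3.10.9.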

Additional observations from a re-analysis of the deposited data

How the results depend on the processing

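Calls of the 35 tested synthesis genes were unchanged under total-count scaling (which moved the median of all genes by -0.065 on the log2 scale), pseudocounts of 0.5 and 5, no low-value filter, no fold minimum and limma-voom on the recovered counts, which called 3689 genes higher and 4194 lower of all genes. At a filter of a mean of 50, 4 members were called lower (7 at a mean of 5), 4 other pathway genes higher (9) and 7 lower (11), and 2317 of all genes higher (3783), since fewer genes were tested. Without a fold minimum, 6478 genes were called higher (3783) and 6363 lower (4186). Leaving out 1 library at a time gave 5 to 9 members higher and 5 to 10 lower, 6 to 11 other pathway genes higher and 10 to 15 lower, and 3297 to 3757 of all genes higher and 3721 to 4404 lower. The log2 fold change changed sign when a library was left out for *BCAT4* BraA05g027600.3C (-1.93 to 3.39), *CYP83A1* BraA04g008320.3C (-1.38 to 1.08), *UGT74B1* (-1.20 to 0.037), *SOT17* (-1.75 to 1.56), *SOT18* BraA07g038050.3C (-0.57 to 0.72), *UGT74C1* BraA05g012890.3C (-1.96 to 1.66), *FMOGS-OX2* (-0.94 to 0.91) and *MYB28* BraA03g044380.3C (-0.33 to 0.029). A pseudocount of 5 turned *UGT74C1* BraA05g012890.3C to 0.30. *FMOGS-OX5* BraA09g060940.3C lost its call without ‘FT’ library 2, at 0.99, under the fold minimum. Where no cause is named, the cause was not tested. Genes with few counts in a line, such as *MYB29* and *CYP81F3*, are limited by depth. No paired analysis was possible because the recovered libraries carry no replicate number of the labels.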
